A study of Mus musculus with 6 samples.

Results

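Spink7, Spink10 and Spink13 are 3 mouse genes named for the Kazal type of serine protease inhibitor, and they lie beside each other on chromosome 18. They were taken by gene name from a deposited table of retinal RNA-seq, where they held 5 of 26691 transcript rows and 3 of 15450 named genes. They were picked with their values in this table already known. Their difference between the groups is therefore given as a description, with no test. Polyadenylated RNA came from live Thy1-positive cells sorted from mouse retina 3 days after the optic nerve was crushed. The control group had received the adeno-associated virus AAV-Control, whose genotype label is AAV-PLAP. The other group had received AAV-Sox11 (labelled AAV-So11), which supplies the transcription factor Sox11. In both groups the virus was given for 2 weeks, to mice of about 3 to 4 weeks of age at the start, and all eyes were crushed. Each group had 3 libraries, A, B and C, and each library pooled 3 retinas from 3 animals, with ages and sexes roughly balanced between treatments. The control and AAV-Sox11 libraries of a letter were prepared on the same day, per the series description. The labels name neither the mouse strain nor the promoter of the viruses.

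A Kazal domain is a small fold held by disulphide bonds, with an exposed loop that sits in the active site of a serine protease and blocks it. Spink proteins are mostly secreted and are best known from glands and surface epithelia. There Spink1 guards the pancreas against trypsin and Spink5 restrains the kallikreins of the skin. Spink7 is known from the lining of the oesophagus, and Spink13 from the epididymis. RefSeq (GRCm38.p6) lists 13 genes named Spink followed by a number, or Spinkl, of which 10 are on chromosome 18. Of these, 7 (Spink1, Spink5, Spink14, Spink6, Spink12, Spinkl and Spink11) form a separate group between 43728069 and 44196177, about 18.4 to 18.8 Mb from the 3 genes described here. The others, Spink4, Spink2 and Spink8, lie on chromosomes 4, 5 and 9. None of the 12 other Spink names searched for, Spink3 and Spink9 among them, matched a gene in the table, so they were not analysed here.

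All 5 Spink rows were lower in every AAV-Sox11 library than in every control library. The 3 genes together, summed per library, had normalized values of 913.6, 774.7 and 1123 in controls A, B and C, and of 382.6, 302.2 and 311.7 with AAV-Sox11. Spink13 made up 62.2% to 70.7% of that sum in the controls and 65.6% to 67.6% with AAV-Sox11. The normalized value is the authors' own, on a scale where a library totals 10695330 to 11657271, and is an adjusted value, not a read count. Over all genes, 14.4% had the 3 AAV-Sox11 libraries below the 3 controls, and 3.03% were at least 2-fold lower with AAV-Sox11. All 3 Spink genes met both conditions. Among transcript rows, 3.5% were at least 2-fold lower, as were all 5 Spink rows. In a limma test 2.32% of all genes passed at an adjusted p under 0.05. The Spink genes were chosen on this contrast, so nothing is read from their count. These are bulk libraries, in which fewer cells of a type and less RNA per cell cannot be told apart.

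The annotation (GENCODE M21, build GRCm38) shows how the 5 rows are placed. Spink10 is annotated on the plus strand at chr18:62548911-62668070, and Spink13 on the minus strand at chr18:62607535-62741387. Spink7 is on the minus strand at chr18:62592194-62596327, inside the outer bounds of Spink10. The Spink13 row, ENSMUST00000097557, is a protein-coding transcript of 5 exons and 796 nt, spread over 133849 bases because its first intron alone has 126093 bases. All 3 Spink10 rows lie wholly inside that intron, on the opposite strand. No exon base of any row was shared with an annotated exon of another gene, so the overlap of the annotated genes is an overlap of introns and outer bounds. No source used here states whether counting used strand, so intronic reads of Spink13 cannot be told apart from reads of Spink10 where they fall in Spink10 exons.

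**Figure D1:**
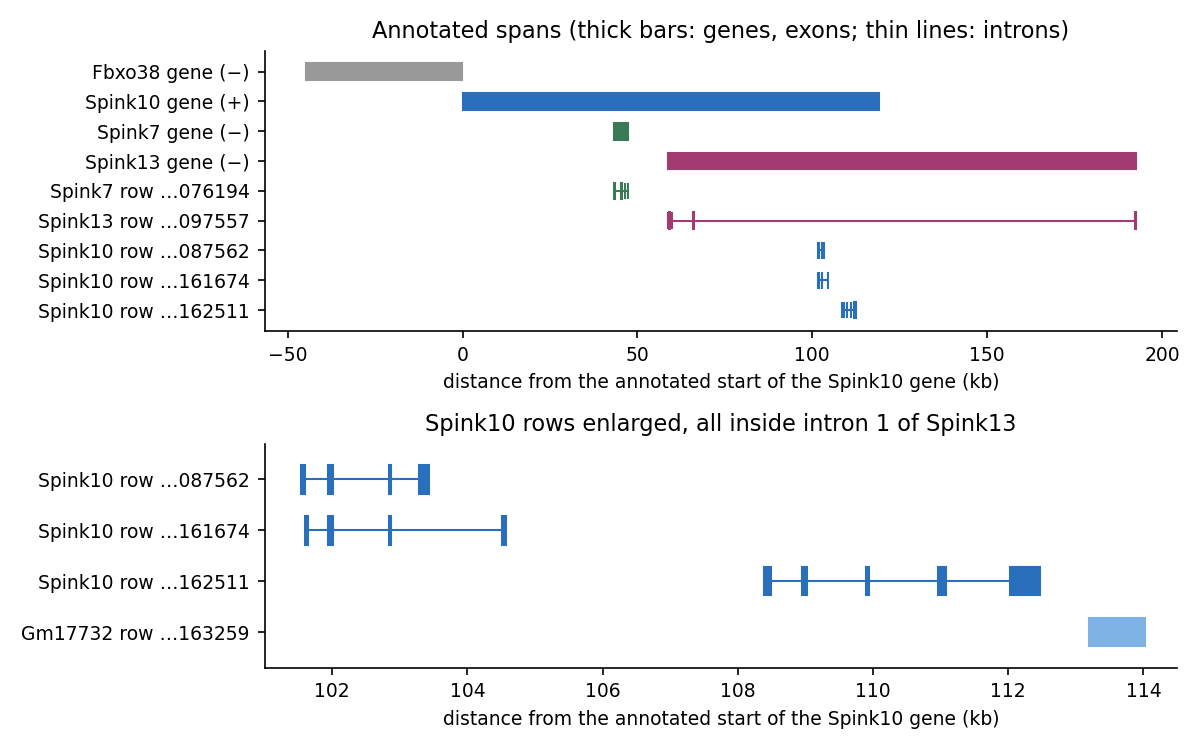
Annotated positions, in kb from the start of the Spink10 gene. The upper panel has the 3 Spink genes, their left neighbour Fbxo38 and the 5 table rows, with exons as blocks and introns as lines; the lower panel enlarges the 3 Spink10 rows and the row named Gm17732, and shows that ENSMUST00000087562 and ENSMUST00000161674 share exons while ENSMUST00000162511 stands apart.

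Spink10 has 7 annotated transcripts, of which 3 were rows under its name. ENSMUST00000087562 (62650450 to 62652349, 4 exons, 326 nt) is annotated as a processed transcript, without a coding frame. ENSMUST00000161674 (62650504 to 62653475, 4 exons, 211 nt) is protein-coding and shares 118 exon bases with it, so reads of these 2 rows could be split between them. ENSMUST00000162511 (62657292 to 62661380, 5 exons, 784 nt) is protein-coding and shares no exon base with either. Of the 296 stretches of 31 bases in ENSMUST00000087562, 41 (13.9%) also occurred in transcripts of other genes, 44 genes in all. They fell between bases 215 and 302 of the transcript, within exon 4, so some of its reads may not be unique to it. The other 4 rows had no stretch of 31 bases in common with another annotated gene. Spink7 (ENSMUST00000076194, 4 exons, 540 nt) and Spink13 each had 1 row of 2 annotated transcripts.

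Spink13 was the most abundant of the 3 genes, both as a gene and per length. Its normalized values were 645.6, 481.5 and 770 in controls A, B and C and 258.5, 198.3 and 208.1 with AAV-Sox11. The lowest control was thus 1.86 times the highest AAV-Sox11 library. Group means were 632.4 ± 144.7 and 221.7 ± 32.3 (SD, n = 3), so that the AAV-Sox11 mean was 35.1% of the control mean. For Spink13 the log2 fold change, on log2(value + 1), was -1.49 ± 0.19 (SE of the limma fit), the 104th lowest of the 15450 genes. Per kb of transcript the mean value was 794.4 in the controls and 278.5 with AAV-Sox11. Over all libraries, Spink13 per kb stood at the 95.1th percentile of the rows with an annotated length.

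Spink10, summed over its 3 rows, had 216.5, 228.5 and 254.7 in the controls and 89.65, 73.74 and 68.38 with AAV-Sox11. The controls spanned 1.18-fold from lowest to highest, and the lowest was 2.41 times the highest AAV-Sox11 library, the widest gap of the 3 genes. Group means were 233.2 ± 19.6 and 77.26 ± 11.1 (SD, n = 3), and the AAV-Sox11 mean was 33.1% of the control mean. The log2 fold change of Spink10 was -1.59 ± 0.15 (SE), the 75th lowest of all genes.

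The 3 Spink10 rows differed in size and in evenness. The leading row, ENSMUST00000087562, had 126.2, 115.7 and 131.2 in the controls and 37.5, 35.3 and 38.2 with AAV-Sox11, a 3.36-fold difference of means. Its same-day differences were nearly equal, at -1.72, -1.68 and -1.75 on the log2 scale for A, B and C. The row without shared exons, ENSMUST00000162511, had 77.7, 103 and 108.1 in the controls and 44.8, 33.2 and 26.1 with AAV-Sox11. Its same-day differences were uneven, at -0.78, -1.6 and -2.01. The shortest row, ENSMUST00000161674, had 12.6, 9.8 and 15.4 against 7.29, 5.2 and 4.02, and rests on whole numbers of only 4 to 16. All 3 rows had all AAV-Sox11 libraries below all controls, as had 15.3% of all transcript rows. Spink10 was chosen on this contrast and its rows come from the same libraries, so nothing is read from this.

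The make-up of Spink10 varied between libraries more than between groups. ENSMUST00000087562 held 58.3%, 50.6% and 51.5% of the gene's value in controls A, B and C, and 41.9%, 47.9% and 55.9% with AAV-Sox11. ENSMUST00000162511 held 35.9%, 45.1% and 42.4%, and 50%, 45.1% and 38.2%. These shares overlapped between the groups. Per kb, which corrects for the short length of the leading row, ENSMUST00000087562 had 381.5 in the controls, ENSMUST00000162511 had 122.7 and ENSMUST00000161674 had 59.8. With AAV-Sox11 the values per kb were 113.6, 44.3 and 26.1, in the same order.

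Spink7 was the lowest of the 3 genes in summed value and had the smallest difference. Its values were 51.45, 64.72 and 98.43 in the controls and 34.41, 30.12 and 35.19 with AAV-Sox11. The controls spread over 1.91-fold, and the lowest control was 1.46 times the highest AAV-Sox11 library, so the groups were apart but by less than for Spink10 and Spink13. Group means were 71.53 ± 24.2 and 33.24 ± 2.73 (SD, n = 3), a log2 fold change of -1.03 ± 0.26 (SE), the 412th lowest of all genes. Per kb of transcript Spink7 had 132.5 in the controls and 61.6 with AAV-Sox11, close to the Spink10 row ENSMUST00000162511.

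**Figure D2:**
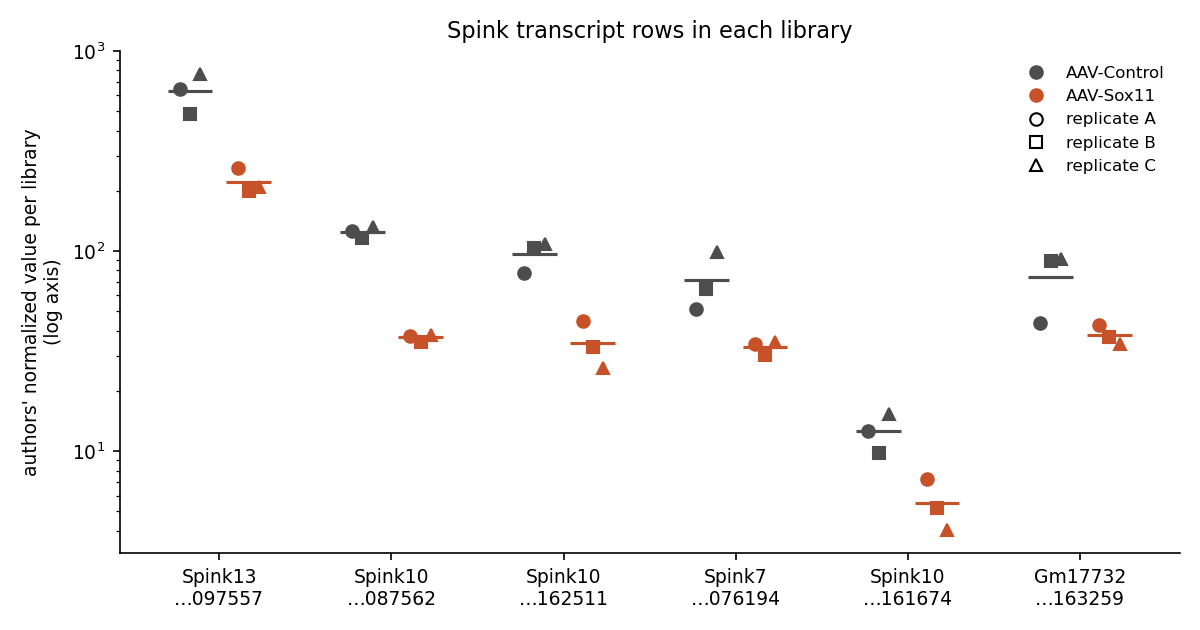
Normalized value of each Spink row and of the Gm17732 row in each library, on a log axis, with group means as lines and replicates A, B and C as circles, squares and triangles. For the 5 Spink rows every AAV-Sox11 point lies below every control point; for Gm17732, control A (43.68) is close to the AAV-Sox11 libraries (34.19 to 42.74).

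The ratio of Spink13 to Spink10 was 2.98, 2.11 and 3.02 in controls A, B and C and 2.88, 2.69 and 3.04 with AAV-Sox11. These ratios overlapped between the groups. The ratio of Spink7 to Spink10 was 0.238, 0.283 and 0.386 in the controls and 0.384, 0.408 and 0.515 with AAV-Sox11. The overlap was only that of 0.386 in control C with 0.384 in AAV-Sox11 A, and the ratio was higher with AAV-Sox11 in each of the 3 same-day pairs. In the authors' deposited table the log2 fold changes were -1.51 for Spink13, -1.75, -1.47 and -1.18 for the Spink10 rows ENSMUST00000087562, ENSMUST00000162511 and ENSMUST00000161674, and -1.1 for Spink7. For some rows the whole numbers varied less within a group than read counting alone would give. For ENSMUST00000087562 the whole numbers had an SD of 2 with AAV-Sox11, against 6 from counting, and of 9.17 in the controls, against 11.3. For Spink7 the SD with AAV-Sox11 was 3.06 against 5.69 from counting alone, but in the controls it was 25.4 against 8.58. SDs below counting are no full measure of the spread between pools. Spink13, with SDs of 154 and 29.4 against 25.5 and 14.7, varied more than counting alone in both groups.

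One further row belongs to the locus but not to the name. ENSMUST00000163259, named Gm17732 in the table, is a single-exon transcript of 821 nt at chr18:62662108-62662928 that GENCODE M21 assigns to Spink10. It begins 727 bases after the end of ENSMUST00000162511 on the same strand. Its values were 43.68, 89.24 and 90.7 in the controls and 42.74, 37.39 and 34.19 with AAV-Sox11. Control A was close to the AAV-Sox11 libraries, and the same-day difference was -0.03 in pair A, against -1.23 and -1.38 in B and C. For Gm17732 the fit gave -0.88 ± 0.31 on the log2 scale (SE, limma adjusted p = 0.139). Its groups did not overlap, but only by the step from 42.74 to 43.68. The log2 fold change was -1.22 without control A and -0.47 with an index of the sexes of the pooled animals as a covariate, and limma adjusted p-values ran from 0.0515 to 0.598 over 20 alternatives. Control A was also the lowest control for ENSMUST00000162511 and for Spink7, but not for Spink13 or ENSMUST00000087562.

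Genes next to the Spink genes were compared to see whether the difference extended along the chromosome. Within 1 Mb of the 3 genes on either side, 12 genes of the table were measured, Gm17732 included. None passed at an adjusted p under 0.05 (0 higher and 0 lower), against 0.796% higher and 1.52% lower among all genes. By limma 4 of the 12 had an unadjusted p under 0.05, as had 24.3% of all genes. With the replicate letter as a block, none of the 12 passed either, while the calls over all genes went from 123 higher and 235 lower to 323 and 414. The median log2 fold change of the 12 genes was 0.05, against 0.03 over all genes. Of the 12, 5 had all AAV-Sox11 libraries below all controls and 3 had them above, against 14.4% and 16.2% of all genes. The mean over the 12 genes was lower in each same-day pair, with differences of -0.24, -0.15 and -0.18 on the log2 scale in A, B and C. That mean includes Gm17732, which GENCODE M21 assigns to Spink10, at -0.03, -1.23 and -1.38. It also includes Mir143hg, with 54.39 in control A and 12.51 in AAV-Sox11 A. A mean without these genes was not computed, so no fall of the region is read from it.

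Fbxo38, an F-box protein gene on the other strand from Spink10, is the nearest measured gene outside the span of the 3 genes. Its end at 62548695 is 216 bases from the annotated outer bound of Spink10, but the first Spink10 row begins only at 62650450. Gm36368 and AC124383.1, annotated inside the span, were not measured. Fbxo38 had 2074, 2113 and 2006 in the controls and 2315, 2461 and 2500 with AAV-Sox11. All AAV-Sox11 libraries were thus above all controls, the direction opposite to the Spink genes. The difference was 0.23 ± 0.07 on the log2 scale (SE, limma adjusted p = 0.11). On the other side the nearest measured gene was Apcdd1, an inhibitor of Wnt signalling, 180844 bases away. Apcdd1 had 162.1, 134.3 and 139.9 in the controls and 99.04, 92.43 and 88.49 with AAV-Sox11, with no overlap (-0.63 ± 0.14 on the log2 scale, limma adjusted p = 0.0627).

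On the same scale, Mir143hg, a microRNA host gene, differed by -0.9 ± 0.5. Mir143hg had 54.39 in control A against 12.74 and 16.39 in the other controls. The antisense transcript 1500015A07Rik had -0.31 ± 0.15. Other neighbours were small in difference. Csnk1a1, a casein kinase, had 0.13 ± 0.08, Pcyox1l 0.09 ± 0.16, and Grpel2, a mitochondrial co-chaperone, 0.17 ± 0.09. Napg, an attachment protein of vesicle fusion, had 0.01 ± 0.1, Txnl1, a thioredoxin-like protein, 0.18 ± 0.1, and Wdr7 0.19 ± 0.08. Every neighbour had a log2 fold change above that of Spink7, the least changed of the 3 Spink genes; whether neighbours and Spink genes differ was not tested, since the Spink genes were chosen by this difference.

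**Figure D3:**
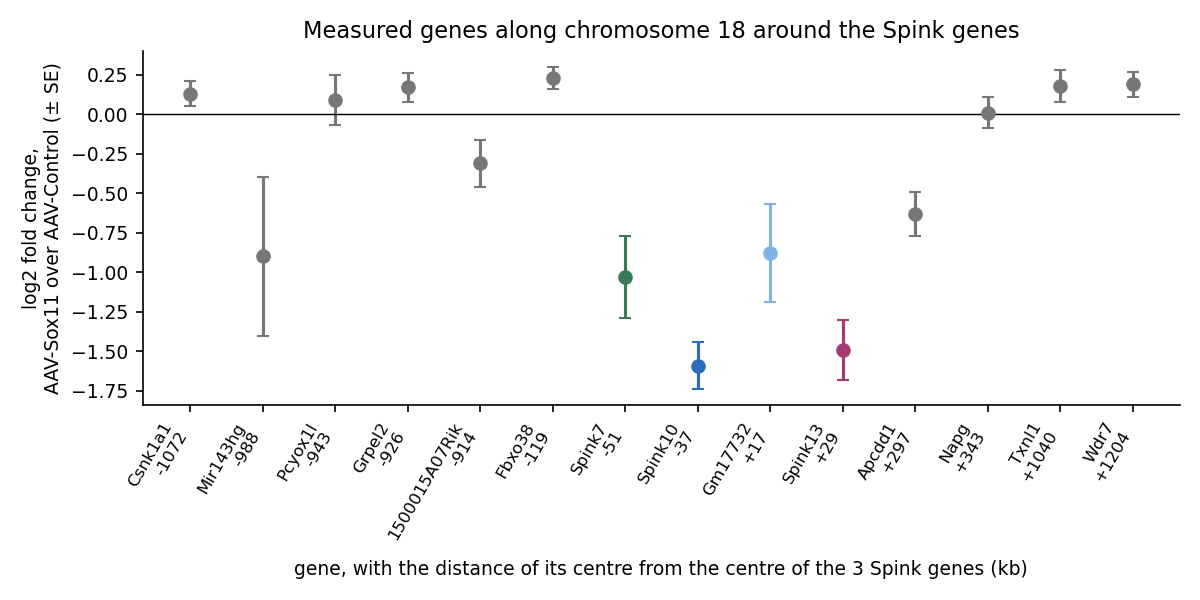
Log2 fold change (AAV-Sox11 over AAV-Control) with its SE for the 3 Spink genes and 11 of the 12 other measured genes within 1 Mb, in order along the chromosome and evenly spaced, with the distance in kb from the centre of the Spink genes under each name. Spink7, Spink10 and Spink13 lie at -1.03, -1.59 and -1.49, Fbxo38 at 0.23 and Apcdd1 at -0.63.

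Other genes with Kazal domains, the proteases such inhibitors block, and inhibitors of other families were taken as the wider pathway. Of 24 listed Kazal-domain genes outside the Spink family, 15 were measured, and 0 rose and 0 fell. Their log2 fold changes ran from -0.78 to 0.64 with a median of -0.14, and 6 had an unadjusted p under 0.05 in limma. Over all genes 2.32% passed and 24.3% had an unadjusted p under 0.05. The 3 with the smallest p were Fstl4, a follistatin-like protein, Htra1, a secreted serine protease with a Kazal-like region, and Igfbpl1, a binding-protein-like gene of the insulin-like growth factor family. Fstl4 was higher with AAV-Sox11, at 508.8 ± 52.1 against 330.6 ± 71.7 (SD, n = 3, limma adjusted p = 0.0852). Htra1 had 48.99 ± 3.8 against 74.87 ± 5.47 (adjusted p = 0.0894) and Igfbpl1 32.87 ± 4.09 against 57.61 ± 12.5 (adjusted p = 0.0963).

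Among 71 listed serine protease genes, 21 were measured, and 0 rose and 0 fell. None of the pancreatic trypsins (Prss1, Prss2, Prss3) or of the listed kallikreins, the best-known targets of Spink proteins, was among the 21. The list median was -0.16, and 5 genes had an unadjusted p under 0.05 in limma, against 2.32% passing and 24.3% at an unadjusted p under 0.05 over all genes. Prss12, the neuronal protease neurotrypsin, differed by 0.6 ± 0.13 on the log2 scale (SE, limma adjusted p = 0.0585) and Tmprss9, a membrane serine protease, by -1.08 ± 0.25 (adjusted p = 0.0633). F2, which encodes prothrombin, had 28.14, 38.24 and 80.1 in the controls and 13.56, 11.43 and 17.09 with AAV-Sox11. The groups of F2 did not overlap, and the fit gave -1.61 ± 0.39 on the log2 scale (limma adjusted p = 0.0701). With the replicate block its adjusted p was 0.0427, and it ran up to 0.379 over 20 alternatives.

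Of 48 genes of other protease inhibitor families, 18 were measured, and 0 rose and 0 fell, with a median of 0.02 and 4 genes at an unadjusted p under 0.05 in limma (2.32% and 24.3% over all genes). Cst3, the secreted cysteine protease inhibitor cystatin C, had 7695, 5228 and 8066 in the controls and 4583, 3902 and 4379 with AAV-Sox11. Its groups did not overlap (-0.68 ± 0.17 on the log2 scale, limma adjusted p = 0.0695). The adjusted p of Cst3 was 0.033 with the replicate block, 0.0209 without control B and up to 0.385 over 20 alternatives. Timp2, a metalloprotease inhibitor, differed by 0.39 ± 0.11 (limma adjusted p = 0.0852) and Serpina3g, a serpin, by 1.41 ± 0.39 (adjusted p = 0.0891).

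The genes most like each Spink gene across the 6 libraries were found by Pearson correlation of log2(value + 1). The 6 points hold the group difference, so any gene with a like difference scores high, and 257, 304 and 390 of the 15450 genes correlated above 0.95 with Spink7, Spink10 and Spink13. For Spink10 the 5 highest were Dcdc5, a doublecortin-domain gene (0.9996), Gm11416 (0.9991), 4930562C15Rik, Gm24106 and Sntg2, a syntrophin. Dcdc5 had 330.1, 334.4 and 360.9 in the controls and 179.3, 156.8 and 145.8 with AAV-Sox11. For Spink13 they were Mir708, Gm26861, Arhgap21, a GTPase-activating protein, Pdap1 and Micalcl, and for Spink7 DQ267102, Fancc, a Fanconi anaemia gene, Brinp1, Cnep1r1 and Nt5dc1. Spink10 and Spink13 correlated at 0.9735 with each other, which ranked 139th among the genes most like Spink10. Spink7 correlated at 0.9093 with Spink10 and 0.9114 with Spink13. The choice by correlation means that the most alike genes follow the library pattern of Spink7, with control C above controls A and B. Fancc is an example (328.1, 360.8 and 467 in the controls, and 273.2, 249.3 and 273.5 with AAV-Sox11).

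The sorted cells carried markers of several retinal cell types, so the Spink transcripts cannot be placed in ganglion cells from these data. Of 12 ganglion cell markers 11 were measured, led by Nefl, a neurofilament, and Thy1, with 3605 ± 1023 and 2303 ± 690.2 in the controls (SD, n = 3). One of them, Stmn2, rose (465.8 ± 97 to 960.6 ± 192.3, SD, n = 3, limma adjusted p = 0.0447). All 8 rod markers were measured, and Gnat1, rod transducin, averaged 14530 (controls) and 10550 (AAV-Sox11). Of 9 amacrine markers 7 were measured, led by Gad2, a GABA-synthesis enzyme (8573 and 10120), and Pax6 (3372 and 2225). Of these 7, Pax6 and Slc6a9, a glycine transporter, fell by 0.6 ± 0.08 and 0.93 ± 0.18 on the log2 scale (limma adjusted p = 0.022 and 0.0481). Over all genes 0.796% passed as higher and 1.52% as lower. The calls of Stmn2, Pax6 and Slc6a9 held in 10, 11 and 10 of 20 alternatives. Of 7 epithelial markers 2 were measured, Krt10 with 113.4 ± 28.8 and 107.8 ± 12.7 and Krt18 with 44.06 ± 11.5 and 32.65 ± 6.75. Spink7 had 71.53 and 33.24 on the same scale, between these keratins. None of 6 testis and epididymis markers was measured.

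Some marker lists were also lower with AAV-Sox11, and their values stand beside those of the Spink genes. Summed bipolar cell markers (9 of 10 measured) ran from 7912 to 12420 in the controls and from 6562 to 7583 with AAV-Sox11, and summed cone markers (7 of 7) from 742.2 to 2689 and from 594.3 to 868.4. Summed rod markers ran from 37810 to 59860 and from 23600 to 43210, microglial markers (4 of 7) from 1006 to 1954 and from 671.9 to 961.3, and oligodendrocyte markers (3 of 4) from 693.3 to 783.5 and from 626.5 to 693.8. Among the most abundant markers were Prkca and Cabp5 for bipolar cells, Opn1sw and Pde6h for cones, Tmem119 and Cx3cr1 for microglia, and Mbp for oligodendrocytes. No gene of these 5 lists passed in limma, but with the replicate block the rod markers Gnat1, Pde6b, Sag and Cnga1, Grik1 of the bipolar list and Tmem119 of the microglial list were lower at an adjusted p under 0.05. In pairs A, B and C the mean of the bipolar list differed by -1.47, -0.16 and -0.82 on the log2 scale, that of the cone list by -1.42, -0.16 and -0.75, and that of the rod list by -0.22, -0.53 and -0.71. The microglial list was lower in each pair (-0.56, -0.42 and -1.01), as was the oligodendrocyte list (-0.3, -0.34 and -0.79). In the same pairs Spink10 differed by -1.26, -1.62 and -1.88, Spink13 by -1.32, -1.28 and -1.88, and Spink7 by -0.57, -1.08 and -1.46. The rod and oligodendrocyte lists had the order of Spink10 and Spink7 over the pairs, and the microglial list that of Spink13. The ganglion cell list was higher in each pair, by 0.06, 0.42 and 0.97. Some orders rest on small steps, as -0.3 against -0.34 for oligodendrocytes and -1.32 against -1.28 for Spink13. With 3 pairs a shared order arises easily, so nothing is read from it. Both the bipolar and the cone list differed least in pair B and most in pair A. In both, control A stood far above the other controls. Relative to the control mean, the bipolar list was at 0.92, -0.77 and -0.15 on the log2 scale in controls A, B and C. The cone list was at 0.91, -0.7 and -0.21. In AAV-Sox11 A they were at -0.55 and -0.51, above control B. The part of any of these lists in the Spink values was not tested.

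The remaining marker lists had median log2 fold changes between -0.25 and 0.36, apart from the ganglion cell list at 0.59 and Cd4, the 1 of 5 T cell markers measured, at 1.28. These were horizontal cells (Calb1 and Onecut1, 2 of 5 measured, median -0.23), Muller glia (led by Dkk3 and Clu, 7 of 8, 0.1), astrocytes (Gfap and S100b, 2 of 4, -0.02), endothelial cells (Kdr, 1 of 5, -0.21), pericytes (led by Rgs5 and Acta2, 3 of 4, -0.25), pigment epithelium (Best1, 1 of 5, 0.36), amacrine cells (0.09) and epithelium (-0.23). Rod, cone, bipolar, microglial and oligodendrocyte medians were -0.53, -0.84, -0.79, -0.65 and -0.17. The RNA of the 2 sexes was also unequal between groups. A sex index, the mean log2 value of Y-linked genes minus that of Xist, was -6.816, -6.793 and -5.262 in controls A, B and C and -6.865, -8.114 and -8.446 with AAV-Sox11. In pairs A, B and C the index differed by -0.05, -1.32 and -3.18. In the same order Spink10 differed by -1.26, -1.62 and -1.88, Spink13 by -1.32, -1.28 and -1.88, and Spink7 by -0.57, -1.08 and -1.46. The differences of Spink10 and Spink7 were in the same order over the pairs as that of the index. Those of Spink13 were not, but only by -1.32 against -1.28, less than its replicate SD of 0.28 on the log2 scale. With 3 pairs a shared order arises easily, so nothing is read from it. The index was lower with AAV-Sox11 in each pair, so sex and virus cannot be fully told apart. Any part of sex in the Spink values was not tested. With the index as a covariate the log2 fold changes were -1.32 for Spink10, -1.09 for Spink13 and -0.62 for Spink7.

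**Figure D4:**
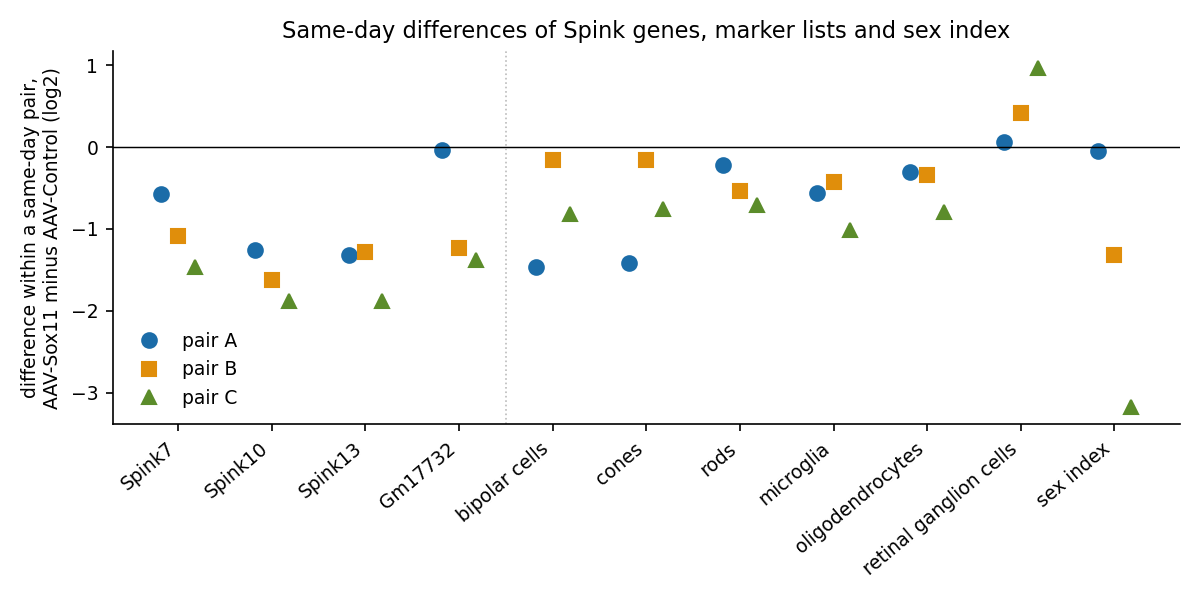
Difference between the AAV-Sox11 and the control library of each same-day pair, on the log2 scale, for the Spink genes, Gm17732, 6 marker lists (mean over the list) and the sex index. The 3 Spink genes are below 0 in every pair (Spink10 -1.26, -1.62 and -1.88). The bipolar, cone and microglial lists are nearest to 0 in pair B, and the other lists and the sex index in pair A.

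The fold changes of the 3 genes were recomputed under 21 other settings, including other scalings, covariates and left-out libraries. All were below 0, a direction that the choice of the genes fixes where no covariate enters. They ran from -1.75 to -1.32 for Spink10, from -1.67 to -1.09 for Spink13 and from -1.27 to -0.62 for Spink7, and the value nearest to 0 came with the sex index in each case.

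**Figure D5:**
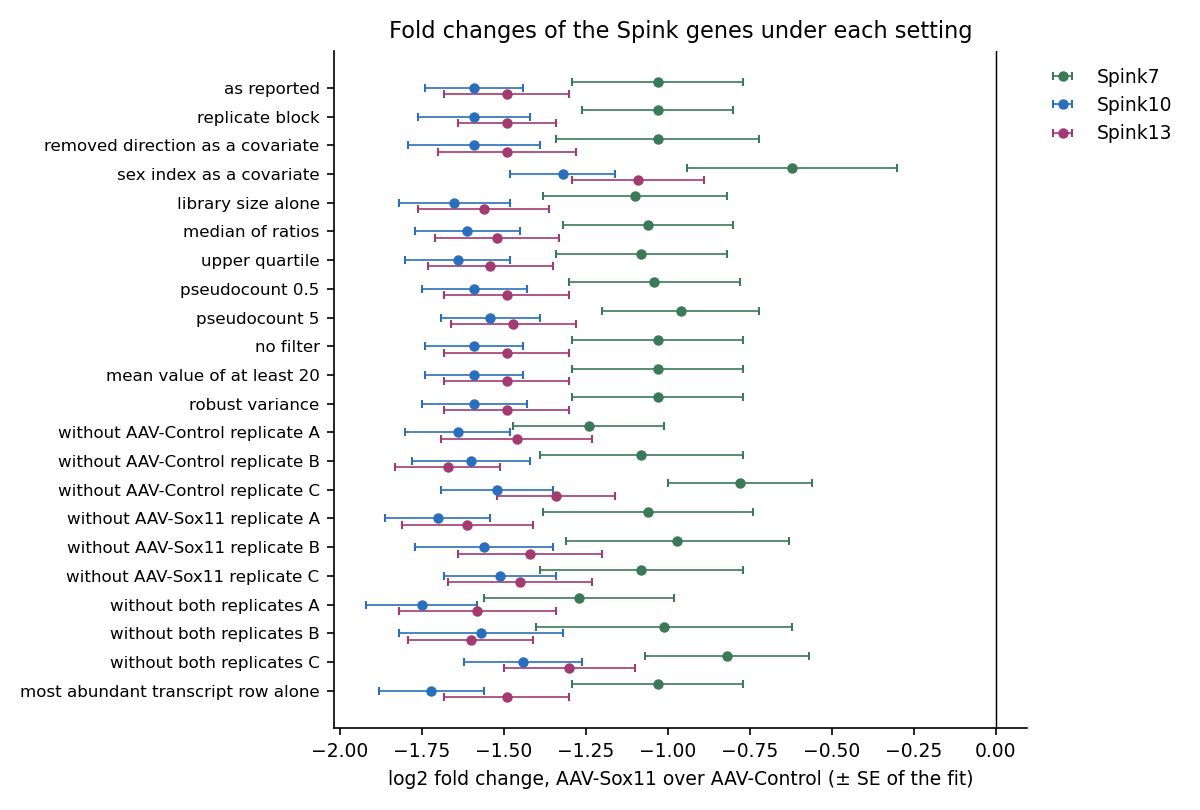
Log2 fold change (AAV-Sox11 over AAV-Control) of Spink7, Spink10 and Spink13 under each setting, with the SE of the fit. All points lie below 0, and the sex index as a covariate gives the values nearest to 0 (-0.62, -1.32 and -1.09).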

How the data were processed

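RNA-seq of 6 libraries was analysed from 1 deposited table. CASAVA 1.8.2, edgeR (unversioned) and build mm10 are listed, per the submitters' processing notes, and no source used here names an aligner, a counter, its strand setting or an annotation release. What the authors deposited as normalized values (a signal, used here) equals their whole-number columns times 1 factor per library (0.9649 to 1.043). The deposited whole numbers were treated as a score: over 1177 rows of mean above 2000, 1 of 5 directions across libraries had an SD of 9.48e-05 natural log units, against 0.098 for the next. Counts as sequenced would vary in all 5, and AAV-Sox11 B holds 57.7% of the weight of the missing direction. Their log2 fold changes were copied as theirs, and the p-values and false discovery rates that the authors deposited were not used.

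Rows with the same gene name were summed. Of the rows, 357 without a name (0.422% to 0.517% of a library) were left out. limma-trend (limma 3.58.1, R 4.3.3) was fitted to log2(value + 1) with Benjamini-Hochberg adjustment over 15450 genes; this scale understates changes of low genes. The minimum mean of 1 removed 0 genes. The fit was tested on simulated data. Same-letter libraries shared a day, per the series description, and their deviations from group means correlated at 0.0025, 0.793 and 0.236 for A, B and C. Positions came from GENCODE M21 (GRCm38, the assembly of mm10) by transcript identifier, and older gene names were matched through RefSeq. Text names all Spink rows, all genes within 1 Mb, the called genes or 3 smallest p of each list, the 5 most alike genes, and the 2 most abundant markers of each cell type; some genes that this rule picks are not reported here, and Gm17732 was singled out after its values were seen. Members and lists were chosen with earlier results of these data known. No count model was run, since the values are not counts. The p-values rest on the spread left in these values between pools of 3 animals, with that direction missing, and can be too small.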

Additional observations from a re-analysis of the deposited data

How the results depend on the processing

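Adding the sex index moved the log2 fold changes to -0.62 (Spink7), -1.32 (Spink10) and -1.09 (Spink13). For each gene 20 of 21 alternatives stayed within 1 replicate SD. Several of these could not move the fold change, namely the replicate block, the filters on the mean and the robust variance. For Spink7 and Spink13 the most abundant row is also the only row. The count of 20 is therefore no measure of robustness. Leaving out 1 library gave -1.24 to -0.78 for Spink7, -1.7 to -1.51 for Spink10 and -1.67 to -1.34 for Spink13, and leaving out a same-day pair -1.27 to -0.82, -1.75 to -1.44 and -1.6 to -1.3. The replicate block gave the same fold changes, as it must with 1 library of each group per letter. Genes called over all genes in limma numbered 358, but 737 with the replicate block, 0 with the removed direction as a covariate (2582 at an unadjusted p under 0.05), 0 with the sex index (2702), and 0 to 745 without 1 library: 138 without control A, 745 without control B, and 0 without AAV-Sox11 A, B or C (3120, 1942 and 2953). Without both libraries of A, B or C there were 1, 1 and 0 (2993, 2017 and 3092). Against 123 higher and 235 lower, scaling by upper quartile gave 100 and 355, and by library size 103 and 356. With the block, 1 serine protease gene (F2) and 1 inhibitor gene (Cst3) were called, both lower; without control B, 2 inhibitor genes (Cst3 and Serpine2, chosen after its value was seen) were called lower, so that leaving out 1 library gave 0 to 2. The block left the Kazal-domain list and the genes within 1 Mb at 0. The cause of these changes was not tested. No other Spink gene was measured, so that list gave no value.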
